A study of Mus musculus with 2 samples.

Results

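The cells described here are positively selected thymocytes, taken from 2 droplet single-cell RNA libraries of mouse thymocytes, 1 from a thymus homozygous for the GATA site 1 and 2 mutation of NMe (the library called mutant below) and 1 from a wild type thymus. NMe is a NOTCH-dependent enhancer of Myc, and GATA sites are short sequences bound by GATA transcription factors, of which GATA3 is the main one of T cells. About 5000 cells were loaded for each library, and neither age nor strain of the animals is stated in the labels. Barcodes counted as cells when 400 or more genes were seen in them and mitochondrial genes gave no more than 10% of their UMIs (unique molecular identifiers, each standing for 1 captured RNA molecule). A cell was a member when its UMIs of Itm2a, Cd69, Cd5 and Egr2 summed to at least 4, it held no UMI of Klf2 or S1pr1, and it held at most 1 UMI over Mki67, Top2a, Rrm2 and Mcm5, at most 2 over Foxp3, Ikzf2, Tnfrsf4 and Tnfrsf9, and under 10 of Cd74. This gave 163 of 3072 cells: 89 of 1731 in the mutant library and 74 of 1341 in the wild type library.

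Positive selection is the step at which a thymocyte carrying both CD4 and CD8 (a double positive or DP cell) receives a signal through its newly assembled T cell receptor from MHC molecules on thymic epithelium. Signalled cells stop rearranging receptor genes, raise surface CD69 and CD5, move towards the medulla and commit to the CD4 or the CD8 lineage. EGR2 is a transcription factor induced by the receptor signal, CD5 is a surface molecule set by the strength of that signal, CD69 is an early activation antigen that holds cells in the tissue, and ITM2A is a membrane protein long used as a mark of selected thymocytes. KLF2 and its target S1PR1 come later, in cells about to leave the thymus.

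Each group is 1 library, so no result below has a test or a replicate check. Levels are UMIs summed over the cells of a library, scaled to the total of those cells as counts per 1e6 (CPM), and every interval is a 95% interval of counting error only. The mutant members held 268986 UMIs with a median of 2473 a cell (1421 to 9487), and the wild type members held 208250 UMIs with a median of 2502 (1798 to 5914). In all, the mutant library had 6364506 UMIs over 1737 barcodes and the wild type library 6638880 over 1346. The libraries shared 1 barcode, which was not a member in both of them.

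Windows upstream of 4 genes are printed because the genotype concerns GATA sites and these genes mark the steps into and out of the selected state. Itm2a defines the cells, Izumo1r and Rag1 stand at the high and the low end against DP cells, and Ccr9 at the high end against mature cells. Each is the 250 bases before the RefSeq start (GRCm38.p6), read 5′ to 3′ on the gene's strand, with the GATA motif in capitals (AGATAA, with T allowed as its first letter and G as its last, on either strand).
Itm2a, chrX:107403361-107403610, minus strand: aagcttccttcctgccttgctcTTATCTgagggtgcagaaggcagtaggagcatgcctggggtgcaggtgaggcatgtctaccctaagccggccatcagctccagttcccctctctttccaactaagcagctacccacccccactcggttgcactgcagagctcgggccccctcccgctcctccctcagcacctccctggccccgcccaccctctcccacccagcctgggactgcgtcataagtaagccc
Izumo1r, chr9:14903768-14904017, minus strand: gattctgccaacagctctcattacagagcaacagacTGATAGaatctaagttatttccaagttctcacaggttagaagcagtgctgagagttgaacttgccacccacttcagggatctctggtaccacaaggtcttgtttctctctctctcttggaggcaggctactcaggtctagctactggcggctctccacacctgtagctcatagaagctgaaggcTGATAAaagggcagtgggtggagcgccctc
Rag1, chr2:101649533-101649782, minus strand: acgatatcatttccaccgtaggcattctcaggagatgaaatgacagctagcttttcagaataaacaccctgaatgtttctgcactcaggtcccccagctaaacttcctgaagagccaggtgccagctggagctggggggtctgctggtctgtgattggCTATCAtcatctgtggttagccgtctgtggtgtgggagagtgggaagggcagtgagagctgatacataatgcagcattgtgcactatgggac
Ccr9, chr9:123766961-123767210, plus strand: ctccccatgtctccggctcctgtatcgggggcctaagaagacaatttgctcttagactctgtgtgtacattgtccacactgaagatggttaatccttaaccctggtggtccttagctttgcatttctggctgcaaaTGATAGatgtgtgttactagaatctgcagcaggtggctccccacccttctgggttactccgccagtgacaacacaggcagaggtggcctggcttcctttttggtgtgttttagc
The motif began 228 bases before the start of Itm2a, 214 and 30 before that of Izumo1r, 92 before that of Rag1 and 114 before that of Ccr9. The RefSeq start lay in a GENCODE transcript for 28 of the 35 genes with a window, and that of Rag1 did not. Among all 32536 distinct upstream windows of this length 26.5% held it. Of the 44 gate genes and genes named below against DP and mature cells, those 35 had a window, and 11 of them (first window of each gene) held the motif. All 4 printed windows come from these 11, so they do not represent the 35 genes. Whether 11 of 35 differs from the share among all windows was not tested, and no enrichment of the motif is claimed. These are matches of letters, and binding was not measured.

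The 4 gate genes chose the cells, so their values are given as a description. Itm2a (mm10 chromosome X, 107397099 to 107403376, minus strand) had 2368 CPM in the mutant and 2108 CPM in the wild type library, with 637 and 439 UMIs. It was present in 81 of the 89 mutant and 68 of the 74 wild type members, and alone it carried 24 mutant and 20 wild type cells over the threshold. Cd5 (chromosome 19, 10717116 to 10739002, minus strand) had 413 CPM in the mutant and 489.8 CPM in the wild type library. Cd69 (chromosome 6, 129267325 to 129275436, minus strand) had 316 CPM in the mutant and 255 CPM in the wild type library. Egr2 (chromosome 10, 67535475 to 67542188, plus strand) was sparse, with 18 UMIs in the mutant and 13 in the wild type members, and all 4 genes were seen together in 5 mutant and 3 wild type cells. The median gate sum was 7 UMIs in mutant and 6 in wild type members. At the threshold itself, 18 mutant and 12 wild type members had a sum of exactly 4, and 34 mutant and 16 wild type cells stood just outside with a sum of 3. The cells inside had 881 (mutant) and 717 CPM (wild type) of Cd2, the cells just outside 362 and 351 CPM.

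The other limits of the gate took unequal numbers of cells from the libraries. The sum of 4 was reached by 191 mutant and 114 wild type cells, 135 and 96 of which had no Klf2 or S1pr1, 122 and 85 also passed the limit on cycling genes, and 89 and 74 also that on Foxp3, Ikzf2, Tnfrsf4 and Tnfrsf9. The Cd74 limit removed no cell. Members were 5.14% of kept mutant cells (exact Clopper-Pearson interval 4.15 to 6.29) and 5.52% of kept wild type cells (4.36 to 6.88), a difference of -0.38 percentage points (Newcombe interval -2.03 to 1.21). With each cell thinned to 1500 UMIs the shares were 3.79% of mutant and 3.21% of wild type cells, a difference of 0.59 points (-0.77 to 1.91), so the sign changed with the depth used, and no difference was detectable. Against cells that passed the cycling, regulatory and Cd74 limits, members were 7.57% of 1176 mutant and 11.2% of 663 wild type cells, a difference of -3.59 points (-6.56 to -0.86). The part that cells outside those limits play in this share was not tested.

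Markers of other cells were looked for among the members. The 8 regulatory T cell markers, some of them limited by the gate, summed to 104 UMIs (387 CPM) in mutant and 66 UMIs (317 CPM) in wild type members, with Foxp3 at 0 in both libraries. They stood at 178 and 154 CPM in DP cells and at 377 and 304 CPM in mature cells of the mutant and the wild type library. Among these markers Izumo1r had 32 mutant and 34 wild type UMIs in members. Il2ra had 22 and 0, all in the mutant cells rich in early markers that are described below. The 8 macrophage markers summed to 3 UMIs in mutant and 1 in wild type members, the 5 erythroid markers to 0 and 2, and the 4 gamma delta T markers in the table to 0 and 2. Of 8 B cell and antigen-presenting markers, Cd79a, Ms4a1 and Itgax were at 0 in both libraries, and the list summed to 13 mutant and 1 wild type UMIs. Of 10 innate-like T and NK markers, Klrb1c, Tyrobp, Zbtb16 and Tbx21 were at 0 in both libraries, and 35 of the 59 mutant UMIs of that list were in 1 cell, against 14 UMIs in all wild type members.

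Early double negative markers stood apart in the mutant library. Their 6 genes, among them the interleukin 2 receptor chain Il2ra and the NOTCH target Hes1, summed to 107 UMIs in mutant and 15 in wild type members. In 5 mutant cells and in no wild type cell the sum reached 4 (range over members 0 to 31 in the mutant and 0 to 2 in the wild type library). These 5 cells had 2632 to 9487 UMIs, 13.0% of all mutant member UMIs, and they also held 38 UMIs of Cd3e and 8 of Cd5. Such cells meet the gate but carry markers of a stage before DP, and the results between libraries that they move most are given without them as well. The same 6 genes stood at 250 CPM in mutant and 63.2 CPM in wild type DP cells, and at 222 and 69.2 CPM in mature cells. Their highest sum in 1 cell was 14 and 2 UMIs in DP cells and 27 and 3 in mature cells. The mutant library was thus the higher in each kind of cell, and DP and mature cells holding these markers were not left out.

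**Figure D1:**
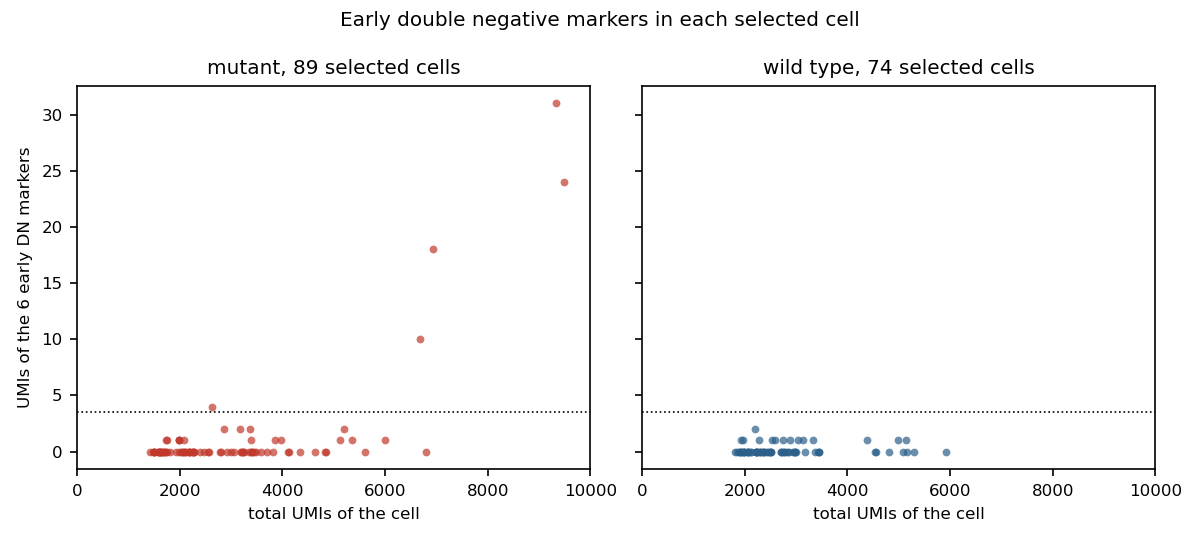
UMIs of the 6 early double negative markers (vertical axis) against the total UMIs (horizontal axis) of each selected cell, mutant on the left and wild type on the right, with the dotted line between sums of 3 and 4. The 5 mutant cells above the line have up to 31 such UMIs, and no wild type cell has more than 2.

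To place the cells in development they were set against resting DP cells of the same library (at least 1 UMI of Cd4 and 1 of Cd8a or Cd8b1, a gate sum of at most 1 and the other limits of the gate, 214 mutant and 202 wild type cells) and against mature cells (at least 2 UMIs of Klf2 and S1pr1 and 1 of a CD3 gene, at most 1 over Nkg7, Klrd1, Xcl1 and Fcer1g, and the limits on cycling, regulatory and Cd74 UMIs, 185 mutant and 87 wild type cells). The median depth was 1717.5 UMIs in mutant and 2141 in wild type DP cells, and 3166 in mutant and 3061 in wild type mature cells. Markers of another cell type touch the mutant DP cells, whose 8 macrophage markers summed to 202 UMIs, 156 of them in 1 cell, against 29 in wild type DP cells. The 9 cycling markers summed to 141 UMIs (339 CPM) in mutant and 464 UMIs (977 CPM, 72 of the UMIs in 1 cell) in wild type DP cells, and their part in the results was not tested. All genes with at least 50 CPM in 1 of the 2 kinds of cells and 20 UMIs in all, in each library, were compared, leaving out the genes that chose the cells. Against DP cells 87 of 3020 genes (2.88%) were at least 2-fold higher in selected cells in both libraries, and 226 (7.48%) were at least 2-fold lower, where the median gene stood at a log2 ratio of -0.20 in the mutant and -0.17 in the wild type library.

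The DP programme was low in selected cells. Of its 10 genes compared, 9 were at least 2-fold lower in both libraries, against 7.48% of all genes. The median log2 ratio of the 10 genes was -2.75 in the mutant and -2.64 in the wild type library. Rag1, which cuts receptor genes for rearrangement, had 33.5 CPM in the mutant and 76.8 CPM in the wild type library, against 952 and 941 CPM in the DP cells of the same libraries, log2 ratios of -4.83 (-5.97 to -3.89) and -3.62 (-4.43 to -2.90). Its partner Rag2 had 0 UMIs in mutant and 5 in wild type selected cells, against 82 and 71 in DP cells. Dntt, which adds bases at receptor joins, had 219 CPM in the mutant and 129.7 CPM in the wild type library, against 1199 and 1546 CPM in DP cells.

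Other genes at the low end against DP cells were Fbln2, Epg5, E2f2, P2rx1, Endou, Dgkeos, Xrcc6, Xrra1 and Arpp21. E2f2, a cell cycle transcription factor, and the ATP-gated channel gene P2rx1 were each at 0 or 1 UMI in selected cells of both libraries. DP cells held 29 mutant and 50 wild type UMIs of E2f2 and 77 and 44 of P2rx1. Fbln2 had 0 UMIs in both, against 31 and 30 in DP cells. Arpp21 still had 126 CPM in the mutant and 115 CPM in the wild type library, against 1356 and 971 CPM in DP cells.

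The genes at the high end against DP cells were Izumo1r, Cd40lg, Ckb, Tmsb10, Cd53, Samhd1, Id2, Nfkbid, Cd2 and Klk8. Izumo1r, which encodes folate receptor 4, had 32 mutant and 34 wild type UMIs in selected cells (119 CPM in the mutant and 163 CPM in the wild type library), against 1 and 0 in DP cells. It is also among the regulatory T cell markers above. Cd40lg, the helper T cell ligand of CD40, had 21 and 31 UMIs, against 0 in DP cells of both libraries. These genes were all but silent in DP cells, so no fold is given for them.

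Cd2, an adhesion receptor, had 869.9 CPM in the mutant and 836 CPM in the wild type library, against 52.9 and 118 CPM in DP cells, log2 ratios of 4.04 (3.41 to 4.74) and 2.82 (2.38 to 3.29). Id2, an inhibitor of E proteins, had 461 CPM in the mutant and 423 CPM in the wild type library, against 33.7 and 44.2 CPM. Tmsb10, which binds actin monomers, had 16075 CPM in the mutant and 17589 CPM in the wild type library, against 1435 and 1725 CPM, log2 ratios of 3.49 (3.36 to 3.61) and 3.35 (3.24 to 3.46). Each of these genes lay well outside the counting interval of the DP cells in both libraries.

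**Figure D2:**
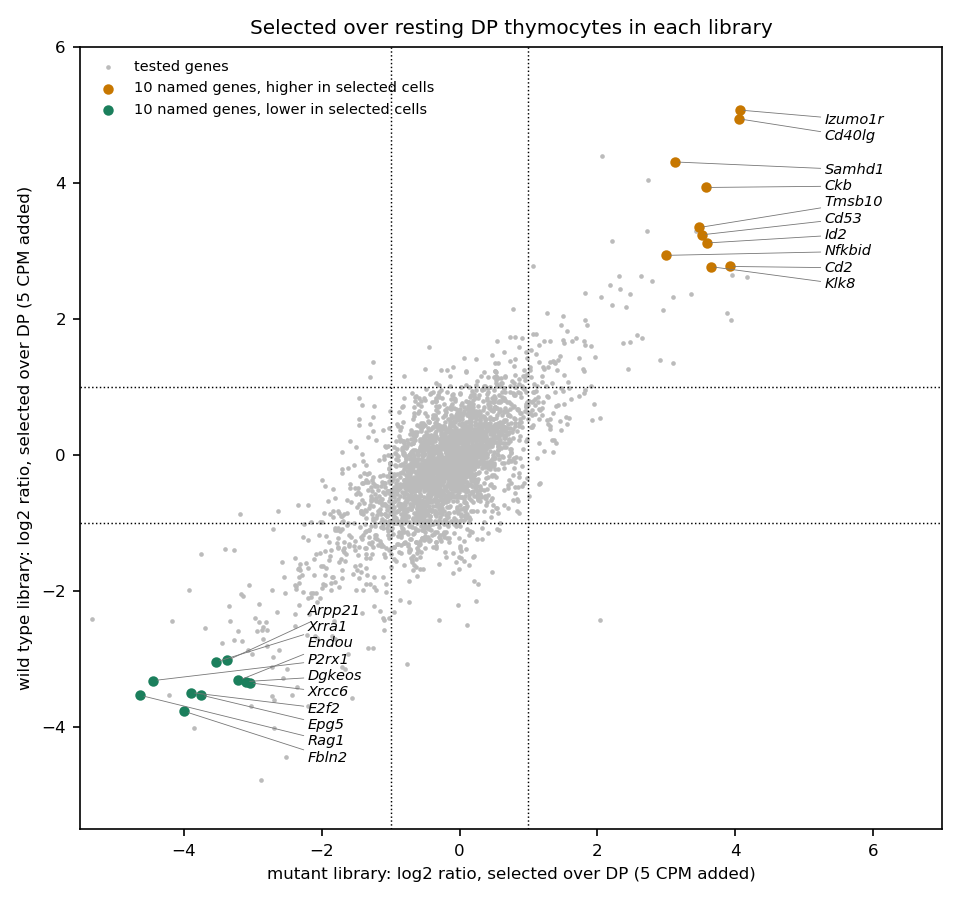
Log2 ratio of selected over resting DP cells in the mutant library (horizontal axis) and in the wild type library (vertical axis) for 3020 genes, with 5 CPM added to both levels and dotted lines at 2-fold. The 10 named genes at each end lie beyond 2-fold in both libraries.

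Genes of the T cell receptor response were higher in the selected cells, which the choice of cells favours. Members needed at least 4 UMIs of Itm2a, Cd69, Cd5 and Egr2, and DP cells held at most 1. Genes induced together with these are expected to be higher in members, so the values below are a description and no separate support. Of 9 compared with DP cells, 4 were at least 2-fold higher in both libraries and none at least 2-fold lower, against 2.88% and 7.48% of all genes. The median log2 ratio of the 9 genes was 1.43 in the mutant and 1.42 in the wild type library. Egr1, an immediate early transcription factor, had 141 CPM in the mutant and 168 CPM in the wild type library, against 12.02 and 29.5 CPM in DP cells. Its corepressor Nab2 had 171 CPM in the mutant and 106 CPM in the wild type library, against 21.6 and 6.32 CPM. Nr4a1, the orphan receptor used to report receptor signal strength, had 53 mutant and 15 wild type UMIs, against 0 and 2 in DP cells. Egr3 was at 0 UMIs in all of these cells.

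Of 8 BCL2 family and death genes compared with DP cells, 1 (Bcl2) was at least 2-fold higher and 1 (Bcl2l1) at least 2-fold lower in both libraries. Over all genes the shares were 2.88% higher and 7.48% lower. The median log2 ratio of the 8 genes was -0.51 in the mutant and -0.19 in the wild type library. Bcl2 had 762 CPM in the mutant and 739 CPM in the wild type library, against 111 and 40.02 CPM in DP cells, log2 ratios of 2.79 (2.32 to 3.28) and 4.21 (3.52 to 4.98). Bcl2l1, which encodes the BCL-xL that protects DP cells, had 59.5 CPM in the mutant and 62.4 CPM in the wild type library, against 310.1 and 223 CPM, log2 ratios of -2.38 (-3.23 to -1.63) and -1.84 (-2.79 to -1.003). Il7r, the receptor of a survival cytokine, had 46 mutant and 43 wild type UMIs, against 2 and 14 in DP cells.

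Against mature cells, 75 of 2471 genes (3.04%) were at least 2-fold higher in selected cells in both libraries and 65 (2.63%) at least 2-fold lower, where the median gene stood at 0.31 in the mutant and 0.28 in the wild type library. The genes at the high end were Ccr9, Hivep3, Cd24a, Gata3, Strbp, Rbmx, Marcksl1, Tox, Egr1 and Lztfl1. Ccr9, a chemokine receptor of cortical thymocytes, had 970.3 CPM in the mutant and 994 CPM in the wild type library, against 121 and 121 CPM in mature cells, log2 ratios of 3.002 (2.63 to 3.39) and 3.04 (2.52 to 3.598). Its level in DP cells was 848 and 998 CPM, close to that of the selected cells. Cd24a, the heat stable antigen that thymocytes shed as they mature, had 275 CPM in the mutant and 168 CPM in the wild type library, against 43.5 and 17.3 CPM in mature cells.

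GATA3 and TOX are both needed for the CD4 lineage. Gata3 had 327 CPM in the mutant and 230.5 CPM in the wild type library, against 55.9 and 27.7 CPM in mature and 88.9 and 71.6 CPM in DP cells. Tox had 747 CPM in the mutant and 802 CPM in the wild type library, against 188 and 142 CPM in mature and 161 and 137 CPM in DP cells. Both were among 14 genes at least 2-fold higher than in both other kinds of cells in both libraries, with Egr1, Nab2, Id2, Ckb, Cd40lg, Hivep3 and St6gal1 among the others. Genes at least 2-fold below both numbered 6: Degs1, Emp3, Fam189b, Klf3, Smc4 and Tspo. Klf3, a relative of Klf2, had 33.5 CPM in the mutant and 24.01 CPM in the wild type library, against 305 and 215 CPM in DP and 113 and 121 CPM in mature cells.

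The low end against mature cells held Emp3, Slfn1, Ms4a6b, S1pr4, Ms4a4b, Igfbp4, Il6ra, Gimap3, Lfng and Smad7. Ms4a4b, a membrane protein of naive T cells, had 74.4 CPM in the mutant and 86.4 CPM in the wild type library, against 829 and 723 CPM in mature cells. Igfbp4 had 85.5 CPM in the mutant and 19.2 CPM in the wild type library, against 713 and 709 CPM, log2 ratios of -3.06 (-3.73 to -2.46) and -5.21 (-7.10 to -3.83). S1pr4, a sphingosine phosphate receptor, had 1 mutant and 3 wild type UMIs, against 94 and 44 in mature cells.

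Of 26 maturation and homing genes 8 were at least 2-fold lower than in mature cells in both libraries and 1 at least 2-fold higher. Interferon-inducible genes were lower for 7 of 16 and MHC class I and peptide loading genes for 7 of 17, with none 2-fold higher in either list. Over all genes these shares were 2.63% lower and 3.04% higher. Ccr7, the receptor that guides cells into the medulla, stood between the stages, at 9.61 and 14.7 CPM in DP, 108 and 81.6 in selected and 331 and 339 in mature cells of the mutant and the wild type library. H2-K1, a class I heavy chain with close paralogs among which reads may be divided, stood at 57.7 and 56.9, 230.5 and 182 and 1141 and 944 CPM in the same order. Each was at least 2-fold higher at each step in both libraries.

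**Figure D3:**
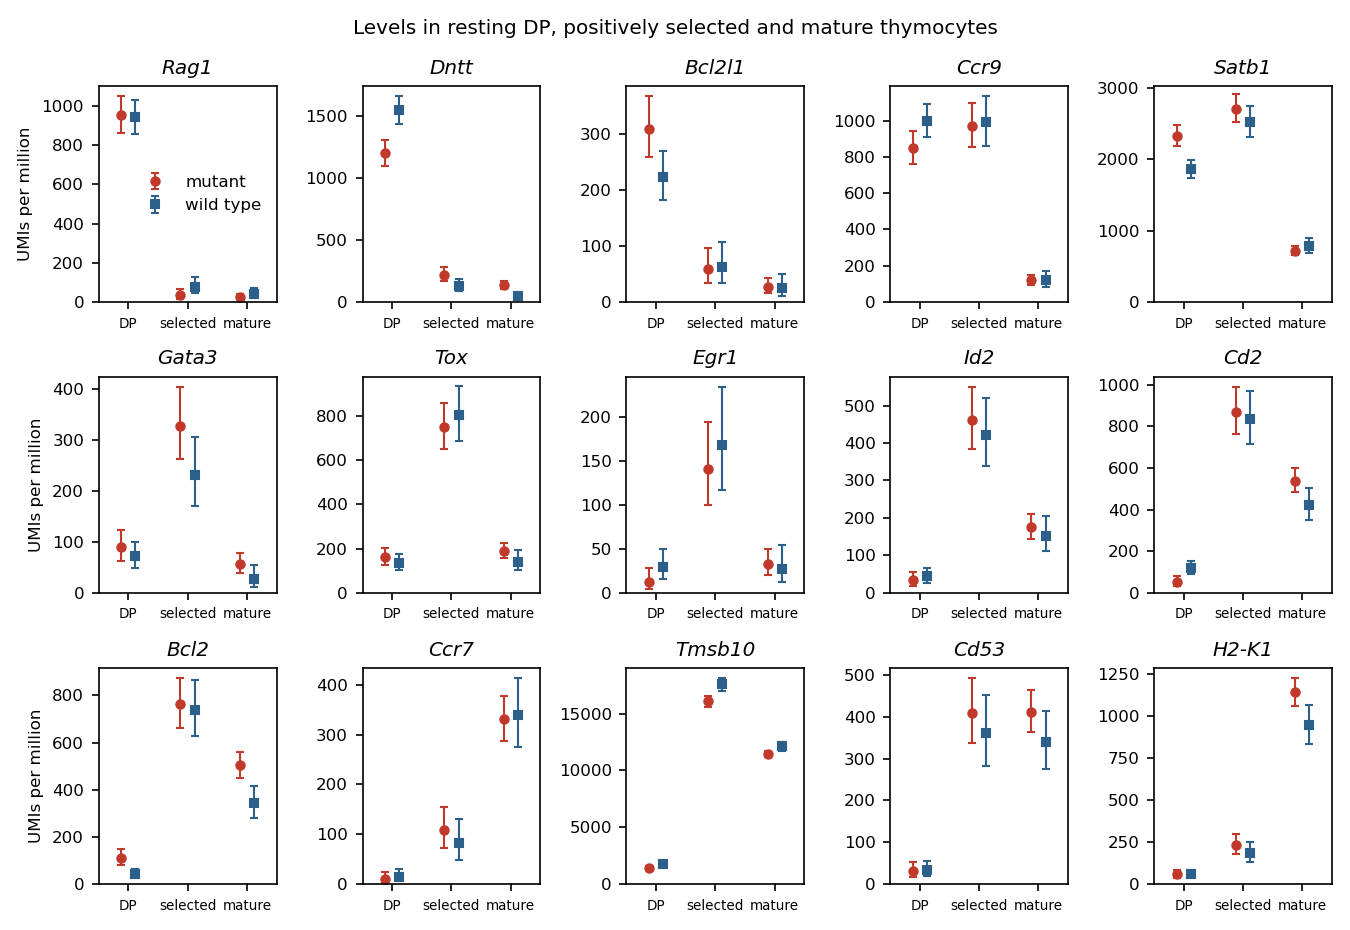
CPM of 15 genes in resting DP, selected and mature cells, with mutant circles left of wild type squares and bars for 95% counting intervals. Gata3, Tox and Egr1 are highest in the selected cells, Rag1 and Bcl2l1 in the DP cells, and Ccr7 and H2-K1 in the mature cells.

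Selected cells were not uniform. Cd69 was seen in 39 mutant and 29 wild type members, with a median depth of 2125 and 2761 UMIs, against 2955.5 and 2375 in members without it. Nr4a1 lay almost wholly in the cells with Cd69, with 52 of 53 mutant and 13 of 15 wild type UMIs. Its level there was 445 CPM (mutant, 332 to 583) and 155 CPM (wild type, 82.3 to 264), against 6.58 and 16.1 CPM in cells without Cd69. Nfkbid, an inhibitor-like regulator of NF-kappaB, had 28 of 30 mutant and 13 of 17 wild type UMIs in the cells with Cd69. Egr1 had 25 of 38 and 26 of 35.

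Cd24a was also higher in members with Cd69, at 427 CPM in the mutant and 238 CPM in the wild type library, against 158 and 121 CPM without it. Its intervals did not overlap in the mutant library and overlapped in the wild type library. Izumo1r ran the other way, at 59.8 (mutant) and 119 CPM (wild type) with Cd69, against 164 and 193 CPM without it, with intervals that overlapped in both libraries. Cd69 is a gate gene, so members without it had to reach the sum through the other 3.

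Ccr7, which the gate did not use, was seen in 20 mutant and 14 wild type members. These had a median of 3400 UMIs in the mutant and 2540 in the wild type library, against 2183 and 2500 in members without it, so in the mutant library detection went with depth. Sox4, a transcription factor of immature lymphocytes, had 312 and 207 CPM in mutant and wild type cells with Ccr7, against 789 and 716 CPM without it. Cd24a had 122 and 0 CPM with Ccr7, against 333 and 212 CPM without it. Ccnd2, a D-type cyclin, ran the other way, at 1058 and 574 CPM with Ccr7, against 364 and 182 CPM without it. For all 3 genes the counting intervals of cells with and without Ccr7 did not overlap in either library. Satb1, a chromatin organiser, was also lower, at 2210.0 and 2297 CPM with Ccr7, against 2904 and 2586 CPM without it, with intervals that overlapped in the wild type library only.

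Markers of resting DP cells were gathered in few members. At least 2 UMIs over the 6 resting DP markers, among them Rag1, Rag2, Dntt and Arpp21, were seen in 17 mutant and 13 wild type members. In these Tmsb10 had 12216 CPM (mutant) and 11348 CPM (wild type), against 17612 and 19214 CPM in the other members. Cd8b1, the beta chain of CD8, had 457 and 1279 CPM with these markers, against 166 and 163 CPM without them. Id2 had 287 and 116 CPM, against 530.2 and 502 CPM. The 17 mutant members had a median of 3436 UMIs, against 2473 over all mutant members. They held 51 of the 59 mutant Dntt UMIs, and mutant Dntt depends on the 5 cells rich in early markers, as given below. How many of those 5 cells are among the 17 was not counted, so the 17 may hold cells with markers of a stage before DP.

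**Figure D4:**
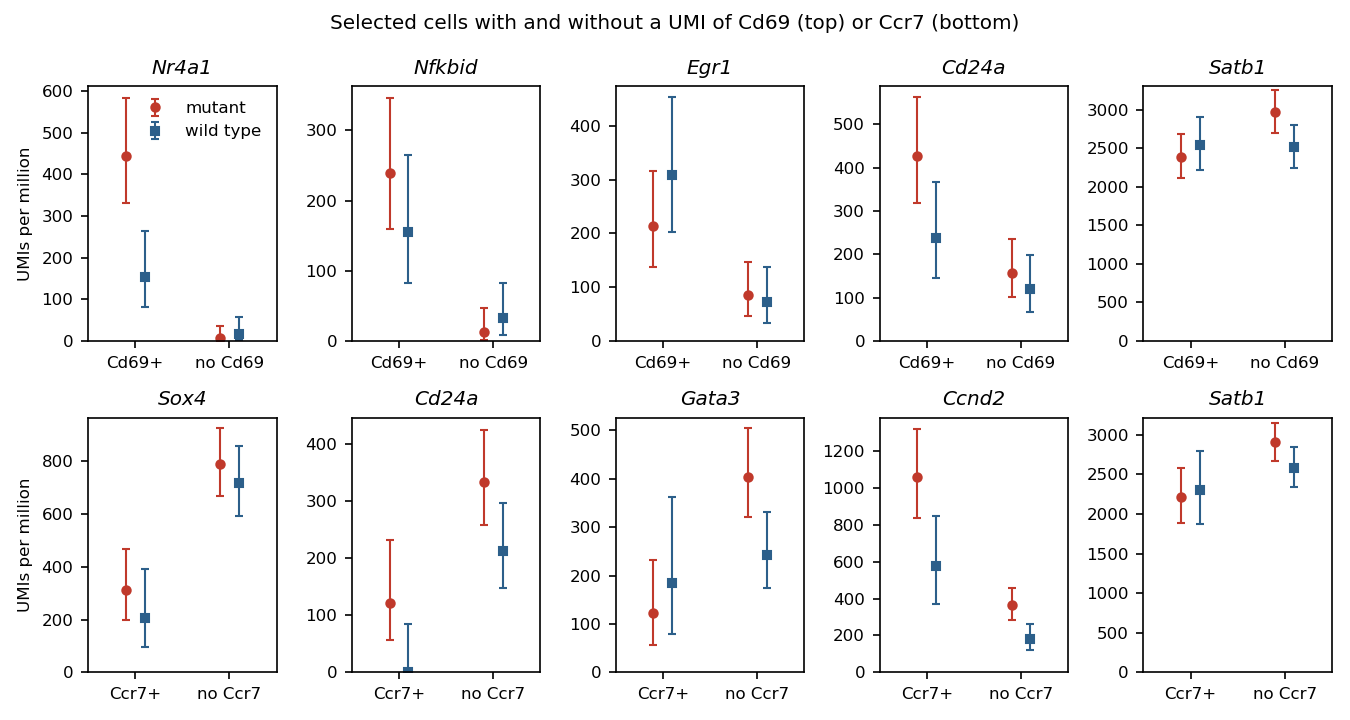
CPM in selected cells with and without a UMI of Cd69 (top row) or Ccr7 (bottom row), with mutant circles left of wild type squares and 95% counting intervals. Nr4a1 and Nfkbid sit with Cd69, while Sox4 and Cd24a are lower and Ccnd2 higher in cells with Ccr7.

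Mutant and wild type members were then compared over 3023 genes with at least 50 CPM in 1 library and 20 UMIs in all, with 5 CPM added for ranking. Of these 464 (15.3%) were at least 1.5-fold higher and 224 (7.41%) at least 1.5-fold lower in the mutant library, and the median gene stood at a log2 ratio of 0.07. Above 0 were 1707 of the 3023 genes and below it 1316. With a median-of-ratios scaling the numbers were 373 higher and 305 lower, so that 55.0% of the genes past 1.5-fold were higher, against 67.4% without it. Few UMIs stand behind most of these genes, and with 1 library a group the genotype cannot be told apart from any other difference between the animals or libraries.

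The genes furthest up in mutant members were Plac8, Il2ra, Prss2, Smo, Tpm3-rs7, Bcl2a1b, Ctse, Myl10, Cap1, Dusp10, Trim24 and Ap2b1. Several rest on few cells. Plac8 had 48 UMIs in mutant and 0 in wild type members, and 1 mutant UMI remained without the 5 cells rich in early markers. Il2ra had 22 and 0, and none remained. Myl10 had 65 and 10, a log2 ratio of 2.33 (1.36 to 3.46) that became -0.17 (-1.59 to 1.25) without those cells. All 20 Prss2 UMIs were in 1 mutant cell. Of the 19 mutant Bcl2a1b UMIs 36.8% were in 1 cell, and its 2 wild type UMIs were in 1 cell. Tpm3-rs7 and Bcl2a1b have near-identical relatives among which reads may be divided.

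Other genes at that end were spread over more cells. Dusp10, a phosphatase of stress-activated kinases, had 138 CPM in mutant and 28.8 CPM in wild type cells, a log2 ratio of 2.26 (1.00 to 3.79). Cap1, which recycles actin monomers, had 126 CPM in mutant and 24.01 CPM in wild type cells, a log2 ratio of 2.40 (1.03 to 4.11). Smo, the signalling receptor of the hedgehog pathway, had 21 UMIs in the mutant and 2 in the wild type library, a log2 ratio of 3.02 (0.99 to 6.16). No single cell held more than 13.5% of the mutant UMIs of Dusp10, 8.82% of those of Cap1 or 9.52% of those of Smo.

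The genes furthest down in mutant members were Ccr4, Isg20l2, Esf1, Fam134b, Rapgef1, Pxmp4, Ehmt1, Pitpnb, Gcsh, Vps35, Pdk1 and Wdtc1. Ccr4, a chemokine receptor that selected thymocytes use on their way to the medulla, had 4 mutant and 17 wild type UMIs (14.9 CPM in mutant and 81.6 CPM in wild type cells), a log2 ratio of -2.46 (-4.49 to -0.84). DP cells held 1 UMI of it in each library, and mature cells 0 in the mutant and 1 in the wild type library. Fam134b, a receptor for the breakdown of endoplasmic reticulum, had 37.2 CPM in mutant and 134 CPM in wild type cells, a log2 ratio of -1.85 (-3.06 to -0.77).

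Coreceptor and lineage genes were compared next. Cd8a, the alpha chain of CD8, had 149 CPM in mutant and 375 CPM in wild type cells, or 40 UMIs in the mutant and 78 in the wild type library, which is a log2 ratio of -1.33 (-1.92 to -0.76). Cd8b1 had 249 CPM in mutant and 394 CPM in wild type cells, a log2 ratio of -0.66 (-1.15 to -0.18), and without the 5 cells rich in early markers the ratios were -1.17 (-1.76 to -0.60) for Cd8a and -0.50 (-0.9953 to -0.02) for Cd8b1. Cd4 had 171 CPM in mutant and 149 CPM in wild type cells, a log2 ratio of 0.20 (-0.49 to 0.91). With cells thinned to 1500 UMIs, Cd8 without Cd4 was seen in 19.0% of 84 mutant and 28.4% of 74 wild type members, and Cd4 without Cd8 in 13.1% of mutant and 13.5% of wild type members. No UMI of either was seen in 64.3% of mutant and 51.4% of wild type members, so at this depth most cells could not be assigned to a lineage. As deposited, Cd4 without Cd8 was seen in 21.3% of 89 mutant (13.4 to 31.3) and 10.8% of 74 wild type members (4.78 to 20.2), and Cd8 without Cd4 in 25.8% (17.1 to 36.2) and 37.8% (26.8 to 49.9), with intervals that overlapped for both. Mature cells leaned the same way. Cd8 without Cd4 was seen in 22.2% of 185 mutant (16.4 to 28.8) and 44.8% of 87 wild type mature cells (34.1 to 55.9), with intervals that did not overlap. Cd4 without Cd8 was seen in 29.7% (23.2 to 36.9) and 16.1% (9.09 to 25.5) of them.

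Of the 22 coreceptor and lineage genes compared, 1 was at least 1.5-fold higher and 2 lower in mutant members, against 15.3% and 7.41% of all genes. The median log2 ratio of the 22 was 0.11 beside 0.07 over all genes, and it became -0.056 with the gate on thinned cells. Gata3 had 327 CPM in mutant and 230.5 CPM in wild type cells, a log2 ratio of 0.51 (-0.02 to 1.04) that turned to -0.17 with the gate applied to cells thinned to 1500 UMIs. Tcf7, which encodes TCF1, had 814 CPM in mutant and 1042 CPM in wild type cells, a log2 ratio of -0.36 (-0.63 to -0.08). Tox had a log2 ratio of -0.10 (-0.41 to 0.20), Satb1 0.10 (-0.06 to 0.27) and Bcl2 0.04 (-0.27 to 0.35). With the gate on thinned cells Tox stood at -0.54. Of these 5 intervals that of Tcf7 alone left out 0. Without the 5 cells rich in early markers it held 0, at -0.27 (-0.55 to 0.01), and that of Satb1 did not, at 0.23 (0.06 to 0.39).

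Myc, the gene that NMe serves, was hardly detected, with 12 UMIs in mutant and 5 in wild type members (44.6 CPM in mutant and 24.01 CPM in wild type cells), a log2 ratio of 0.89 (-0.71 to 2.75). Mxd4, an antagonist of MYC for their shared partner MAX, had 338 CPM in mutant and 139 CPM in wild type cells, a log2 ratio of 1.28 (0.66 to 1.94), and stood at 0.65 with the gate on thinned cells. Of 25 genes of MYC-driven ribosome biogenesis and growth, 6 were at least 1.5-fold higher in mutant members and 1 lower, against 15.3% and 7.41% of all genes, with a median of 0.24. Without the 5 cells rich in early markers 7 were higher and 0 lower, and with the gate on thinned cells the median was -0.0018. Odc1, the first enzyme of polyamine synthesis, had 20 mutant and 4 wild type UMIs, a log2 ratio of 1.95 (0.37 to 3.96). Cytoplasmic ribosomal protein genes leaned slightly down, 73 of 83 below 0, where 1316 of all 3023 genes were, with a median of -0.14 and none past 1.5-fold, and they took 28.0% of UMIs in mutant and 30.5% in wild type members. Ccnd2 had 554 CPM in mutant and 264 CPM in wild type cells, a log2 ratio of 1.07 (0.61 to 1.54), and without the 5 cells the ratios were 1.40 (0.78 to 2.06) for Mxd4 and 1.16 (0.70 to 1.64) for Ccnd2.

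Interferon-inducible genes were higher in mutant members. Of 13 compared, 12 were above 0 and 9 at least 1.5-fold higher, against 15.3% of all genes, with a median log2 ratio of 0.76 (0.49 with a gate sum of at least 6). Ifi27l2a had 558 CPM in mutant and 322 CPM in wild type cells, a log2 ratio of 0.79 (0.37 to 1.23). Ifi203, of the HIN-200 family of DNA-binding proteins, had 96.7 CPM in mutant and 24.01 CPM in wild type cells, a log2 ratio of 2.01 (0.61 to 3.75), and the GTPase gene Ifi47 had 104 CPM in mutant and 43.2 CPM in wild type cells, a log2 ratio of 1.27 (0.14 to 2.54). Samhd1, a nucleotide hydrolase, was the 1 gene below 0, at -0.53 (-1.26 to 0.18). The summed level of the list was 2732 CPM in mutant and 1705 CPM in wild type members. The same sums were 1495 and 956 CPM in DP cells and 7035 and 5925 CPM in mature cells, so the mutant library was the higher in all 3 kinds of cells.

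MHC class I and peptide loading genes were above 0 for 16 of 16, where 1707 of all 3023 genes were, with 4 at least 1.5-fold higher against 15.3% of all genes, and a median of 0.40 (0.88 with the gate on thinned cells). B2m, the light chain of class I molecules, had 1383 CPM in mutant and 869 CPM in wild type cells, a log2 ratio of 0.67 (0.41 to 0.93). In DP cells its ratio was 0.88 (0.66 to 1.10) and in mature cells 0.12 (-0.01 to 0.24). Psmb10, an immunoproteasome subunit, had 119 CPM in mutant and 48.02 CPM in wild type cells, a log2 ratio of 1.31 (0.25 to 2.498). Of the 7 cathepsin genes 6 were at least 1.5-fold higher, against 15.3% of all genes, with a median of 0.87 that became 0.37 with members thinned to 1500 UMIs and 1.13 with the gate on thinned cells. They were led by Ctse (18 mutant and 2 wild type UMIs), Ctsb at 1.13 (0.09 to 2.27) and Ctsl at 1.09 (0.10 to 2.18). The summed cathepsin level was 2129.6 CPM in mutant and 802 CPM in wild type DP cells, and 893 and 699 CPM in mature cells. Cathepsins are abundant in macrophages, whose 8 markers summed to 3 UMIs in mutant and 1 in wild type members. In DP cells they summed to 202 UMIs in the mutant library, 156 of them in 1 cell, and to 29 in the wild type library. The cathepsin sum of DP cells was not taken without that cell. The part of macrophage RNA in any of these cathepsin levels was not tested. Without the 5 cells rich in early markers the medians were 0.75 for the interferon-inducible, 0.43 for the MHC class I and 0.88 for the cathepsin genes.

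Of 11 T cell receptor response genes 2 were at least 1.5-fold higher and 1 lower, near the 15.3% and 7.41% of all genes, with a median of 0.06 that became -0.02 with the median-of-ratios scaling. Without the 5 cells rich in early markers 2 were higher and 0 lower, with a median of 0.19. Nr4a1 had 197 CPM in mutant and 72.03 CPM in wild type cells, a log2 ratio of 1.45 (0.60 to 2.39). In each library 1 cell held much of it, 34.0% of the mutant and 33.3% of the wild type UMIs. Egr1 stood at -0.25 (-0.95 to 0.45) and Nab2 at 0.69 (-0.07 to 1.499). Of 24 genes of the CD3 complex and proximal signalling 20 were above 0, where 1707 of all 3023 genes were, and 1 was at least 1.5-fold higher against 15.3% of all genes, with a median of 0.12. Without the 5 cells rich in early markers 2 were, with a median of 0.19. Lat, the adaptor that gathers the signalling complex, stood at 0.55 (0.27 to 0.83), and Cd3g, a chain of the CD3 complex, at 0.51 (0.29 to 0.72). With members thinned to 1500 UMIs and 5 CPM added, Cd3g stood at 0.292.

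**Figure D5:**
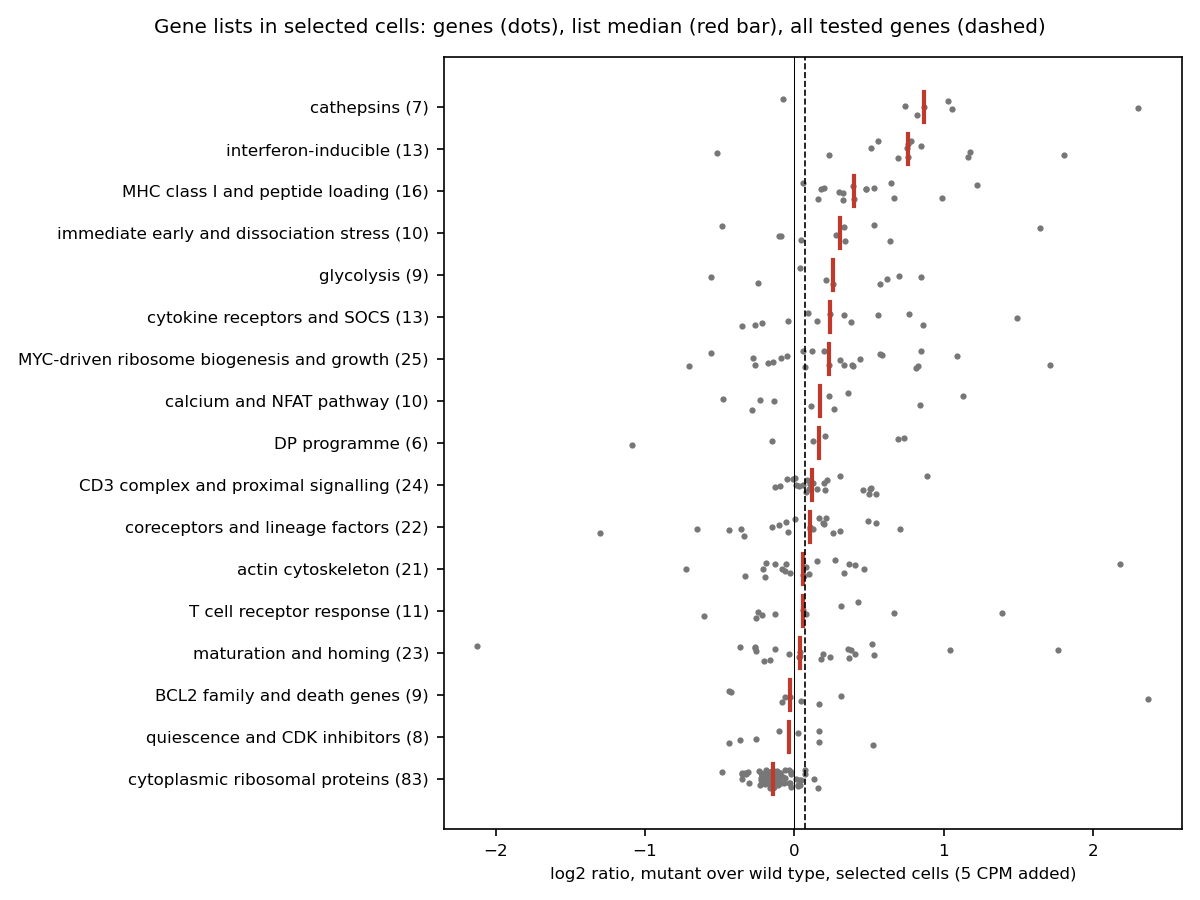
Log2 ratio of mutant over wild type selected cells, with 5 CPM added, for the genes of 17 lists (grey dots, number compared in brackets), each list's median (red bar) and the median of all genes compared (dashed line at 0.07). Cathepsin, interferon-inducible and MHC class I genes lie furthest right, and ribosomal protein genes lie just left of 0.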

How the data were processed

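The deposited files hold raw UMI counts per gene and barcode, 1 table for each library of 10x 3′ v2 RNA, with barcodes chosen by the authors. Per the submitters' processing notes Cell Ranger and mm10 were used, with versions not given in the sources used here. Barcodes with at least 400 genes and at most 10% mitochondrial UMIs were kept, and no count was altered. Scrublet marked 4 mutant and 1 wild type barcodes (0.231% and 0.0746%) and 0 members, and its scores served only as an alternative. Counts were summed over cells of a kind in each library and divided by their total, with Python 3.11.15, numpy 2.4.6, pandas 2.3.3, scipy 1.17.1, scanpy 1.11.5, statsmodels 0.14.6 and matplotlib 3.10.9. Exact Poisson, Clopper-Pearson, Newcombe and exact conditional intervals at 95% cover counting error only. Genes needed 50 CPM and 20 UMIs, and 5 CPM were added for ranks, folds and list medians, while ratios of single genes are given as measured. Thinning drew 1500 UMIs a cell. The scripts were tested on simulated data. The members and gene lists were chosen with earlier results of these data known. Named genes are the 12 highest and 12 lowest between libraries, the 10 at each end against DP and mature cells, members of the receptor response, lineage, DP and maturation lists and marker lists, and the 3 at each end of other lists. Left out of these ranks were unnamed genes and those that are mitochondrial, ribosomal, sex-linked, of haemoglobin or of receptor segments. Genes outside that rule (Actg1, Bcl2, Bcl2l1, Cd3e, Cd3g, Degs1, Fam189b, H2-K1, Ifi27l2a, Myc, Smc4, St6gal1 and Tspo) were chosen after their values were seen.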

Additional observations from a re-analysis of the deposited data

Results flagged for a closer look

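The log2 ratio of mutant over wild type pointed one way in selected cells and the other way in DP cells of the same libraries for 4 genes, and this difference was not tested. For Cd8a it was -1.33 in selected and 0.31 in DP cells, and for Cd8b1 -0.661 and 0.49, where the DP cells had been chosen by their Cd4 and Cd8 UMIs. For Dntt it was 0.759 in selected and -0.37 in DP cells, and in selected cells it became -0.06 (-0.87 to 0.75) without the 5 mutant cells rich in early markers. For Actg1, a cytoplasmic actin, it was 0.364 in selected and -0.25 in DP cells. In mature cells, as deposited, Cd8 without Cd4 was seen in 22.2% of mutant and 44.8% of wild type cells.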

How the results depend on the processing

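No paired analysis was possible because each group is 1 library. For the same reason no replicate could be left out. Over 16 alternative settings, the numbers of genes at least 1.5-fold apart between mutant and wild type members stayed within 1.5 times of 464 higher and 224 lower except under 2. They were 304 higher and 134 lower with members thinned to 1500 UMIs, and 175 higher and 69 lower with at least 100 CPM asked of each gene. Of the genes past 1.5-fold, 134 higher and 45 lower were shared with the main setting after thinning the members. Like numbers did not mean the same genes. With the gate on thinned cells 329 were higher and 186 lower, of which 161 and 52 were shared with the main setting. With a gate sum of at least 6 there were 345 and 170, of which 203 and 74 were shared. Both settings left fewer genes to compare, 2042 and 2222. The numbers against DP and mature cells, recomputed with cells thinned, with a gate sum of at least 6 and without the cells rich in early markers, stayed within 1.5 times. The difference in the share of members had the other sign with a gate sum of at least 3 (0.39 points), with one of at least 6 (0.28) and with the gate on thinned cells (0.59). With the gate on thinned cells the median of the lineage list was -0.056 and that of the MYC-driven list -0.0018. The calcium and NFAT list had -0.0545 with a common lower limit of UMIs and -0.0970 with members thinned. The DP programme list had -0.020 without the highest doublet scores and -0.084 without the 5 cells rich in early markers, an alternative chosen after seeing the data, as was leaving out the 2 deepest cells of each library. Without those 5 cells Myl10 stood at -0.15 with 5 CPM added. The causes were not tested. Another 10 list medians moved by more than 0.2 in the same direction, and 256 did not. Of the ratios of named genes another 16 moved by more than 0.2 and out of their counting interval, and 831 did not. These counts include settings that could not move a ratio. Leaving out member cells over 10000 UMIs removed no member, so it could change no result. Asking for at least 20 or at least 100 CPM changes which genes are compared and leaves each ratio as it was. Among the 16 that moved, Gata3 stood at -0.17 and Lef1 at -0.056 with the gate on thinned cells, against 0.496 and 0.307 with 5 CPM added. Depth limits single genes: the interval of Ccr4, with 4 mutant and 17 wild type UMIs, spans -4.49 to -0.84.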
